A study of Mus musculus with 44 samples.

Results

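The 8 genes described here, *Zar1*, *Zar1l*, *Ybx2*, *Lsm14b*, *Cpeb1*, *Ddx6*, *Eif4e1b* and *Patl2*, encode proteins that store maternal mRNA in the oocyte and control its translation. They were picked by name from a table of 35269 genes measured in 44 mouse embryos at the 2-cell stage, each sequenced on its own, and all 8 were among the 13338 genes with enough reads to be tested. The mice were on a C57Bl/6 background, all embryos came from natural matings, and there were 6 litters, a pair from each of the 3 crosses, which the labels call mating 1 and mating 2.

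In the control cross (ctrl-x-WT), Dppa2/4+/+ females mated with Dppa2/4+/+ males gave 14 Dppa2/4+/+ embryos, called WT. In the cKO-x-WT cross, Dppa2/4m- females, in which a Zp3-Cre transgene active in growing oocytes had deleted the loxP-flanked *Dppa2/4* alleles, mated with Dppa2/4+/+ males gave 15 Dppa2/4+/- embryos, called HET1. In the cKO-x-HET cross, Dppa2/4m- females mated with Dppa2/4+/- males gave 5 Dppa2/4+/- embryos, called HET2, and 10 Dppa2/4-/- embryos, called HOM. All embryos of the last 2 crosses therefore lacked the maternal product, and the HET2 and HOM labels had been assigned by the authors from the *Dppa2* and *Dppa4* transcripts of the embryos themselves.

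A growing oocyte makes far more mRNA than it translates, and keeps the surplus silent in ribonucleoprotein particles. Repressor proteins coat the message, hold its cap and keep its poly(A) tail short, and the message is translated when the tail is lengthened at maturation or after fertilisation. Most of this maternal RNA is cleared by the 2-cell stage, while the embryo starts its own transcription.

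Levels are given as RPM, a gene's reads scaled to a common total of reads per embryo, from reads recovered from the deposited log2 RPM values. Total reads per embryo ranged from 247667 to 3163026, with group medians of 1770010 in WT, 528166 in HET1, 1108889 in HET2 and 803369 in HOM embryos. A gene needs about 3 reads in an embryo to be told from 0. *Dppa2* lay between 203.7 and 677.8 RPM in WT, 40.2 and 345 in HET1, 27.2 and 471.7 in HET2 and 0 and 4.15 in HOM embryos. All 12 markers of the 2-cell embryo looked for had at least 3 reads in at least 5 embryos, against 2 of 10 markers of cumulus and granulosa cells (*Cyp19a1* and *Star*). *Fshr* had no read in any embryo, *Amh* and *Foxl2* reached 3 reads in 0 embryos, and the 10 markers summed to at most 26.1 RPM. Each library holds a whole embryo primed from poly(A), and RPM is relative to the reads of that embryo. Fewer molecules of a message and shorter poly(A) tails on it therefore cannot be told apart, and a change in total RNA is not seen.

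All 8 genes lie at the same GRCm38 positions in the deposited table and in GENCODE M21, and share 0 exon bases with other genes. *Zar1* (chr5:72576806-72581254) and *Zar1l* (chr5:150507055-150518164) are on the reverse strand of chromosome 5. *Lsm14b* (chr2:180024987-180035465, forward strand) and *Patl2* (chr2:122120108-122186189, reverse strand) share chromosome 2, where *B2m* and *Trim69* lie within the *Patl2* locus on the opposite strand. The others are *Ddx6* (chr9:44604892-44640731, forward strand), *Eif4e1b* (chr13:54783998-54788459, forward strand), *Ybx2* (chr11:69935796-69941605, forward strand) and *Cpeb1* (chr7:81347026-81455465, reverse strand). Reads were counted without regard to strand.

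The 3′ end of the message is shown because the oligo-dT primer starts at the tail added there. The transcript ends of the 4 genes that carry most of the results below, with 0 to 5 bases left out after each, and a stretch of *Ybx2* that lies 44 bases before its end, are written 5′ to 3′ in the sense of the mRNA, from GRCm38. They lie at chr5:72577117-72577146 (*Zar1*, reverse strand), chr2:180035429-180035458 (*Lsm14b*, forward), chr13:54788422-54788451 (*Eif4e1b*, forward), chr9:44640697-44640726 (*Ddx6*, forward) and chr11:69941532-69941561 (*Ybx2*, forward). Capitals mark the polyadenylation signal AATAAA, or in *Ybx2* the letters TTTTAT, a form of the cytoplasmic polyadenylation element that CPEB1 binds.
Zar1: ataaagcctgtgAATAAAaggtattgcaaa
Lsm14b: aaatgcaaactaAATAAAcattggactctt
Eif4e1b: ggccctttctgtatctaAATAAAcacttct
Ddx6: ttaatttatctcAATAAAagcccactggaa
Ybx2: cctctgaagccaTTTTATgaactgtcatgt

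On the sense strand, AATAAA or ATTAAA was found within the last 40 bases of 7 of the 8 transcripts, all but *Ybx2*, and within those of 75.7% of 11570 protein-coding transcripts. The signal began between 13 bases (*Eif4e1b*) and 25 bases (*Patl2*) from the end. TTTTAT or TTTTAAT was found within the last 150 bases of *Ybx2* alone among the 8, starting 62 bases from the end, and of 24.5% of all transcripts. These matches are letters in a window of the annotated transcript end and say nothing about binding or tail length.

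Per kilobase of coding-transcript exon, which allows genes to be compared, 5 of the genes had medians over the 44 embryos several-fold above those of the other 3. The median was 17.9 RPM per kb for *Eif4e1b* (range 0 to 199.7), 17.3 for *Lsm14b* (4.61 to 84.7), 12.1 for *Ddx6* (2.24 to 44.9), 9.79 for *Zar1l* (0 to 32.9) and 9.62 for *Cpeb1* (2.21 to 25.2). *Zar1* had a median of 2.71 RPM per kb (0 to 42.3), *Ybx2* 1.33 (0 to 8.25) and *Patl2* 0 (0 to 5.01). The ranges of all neighbours in this order overlapped, and the order at the top changed with the group: *Lsm14b* led in WT embryos at 14.3 and *Eif4e1b* was the third at 11.5, whereas *Eif4e1b* led in HET1 embryos at 31.4, followed by *Lsm14b* at 19.9.

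The depth of these libraries sets what can be said of each gene. *Lsm14b*, *Cpeb1* and *Ddx6* had at least 3 reads in all 44 embryos, *Eif4e1b* in 40, *Zar1l* in 38, *Zar1* in 26, *Ybx2* in 25 and *Patl2* in 9. The median number of reads per embryo was 3 for *Zar1* and *Ybx2* and 0 for *Patl2*, so that a low level of these 3 genes in an embryo could often not be told from 0 at this depth. In the tests, values under 1.86 log2 RPM, the highest value that an embryo's zero-read genes held, were set to that floor, which understates the differences of genes near it.

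The first question was whether maternal or zygotic loss of *Dppa2/4* altered these transcripts. By limma across all tested genes (adjusted p under 0.05), 0 of the 8 genes differed in any of the 4 genotype comparisons. The background was 6.51% of tested genes called between HET1 and WT embryos, 0.0375% between HET2 and WT, 0.045% between HOM and WT and 0.0151% between HOM and HET2 embryos within litters. At an unadjusted p under 0.05 the number of the 8 genes was 1 in HET1 against WT (*Ddx6*) and 0 in the others, beside 2927, 1202 and 2202 of the 13338 genes tested in HET1, HET2 and HOM against WT and 601 of 13265 in HOM against HET2. Analysis with limma voom on the recovered reads also called 0 of 8 in all 4 comparisons. The 3 comparisons with WT share the same 14 control embryos. The median log2 difference of the 8 genes was 0.23 in HET1, 0.02 in HET2 and -0.02 in HOM embryos against WT, beside 0.10, -0.01 and 0.17 over all tested genes. Between HOM and HET2 embryos it was 0.54 beside 0.19, and the 95% intervals of all 8 genes included 0. These medians include *Ybx2* and *Patl2*, whose values lie mostly at the floor.

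**Figure D1:**
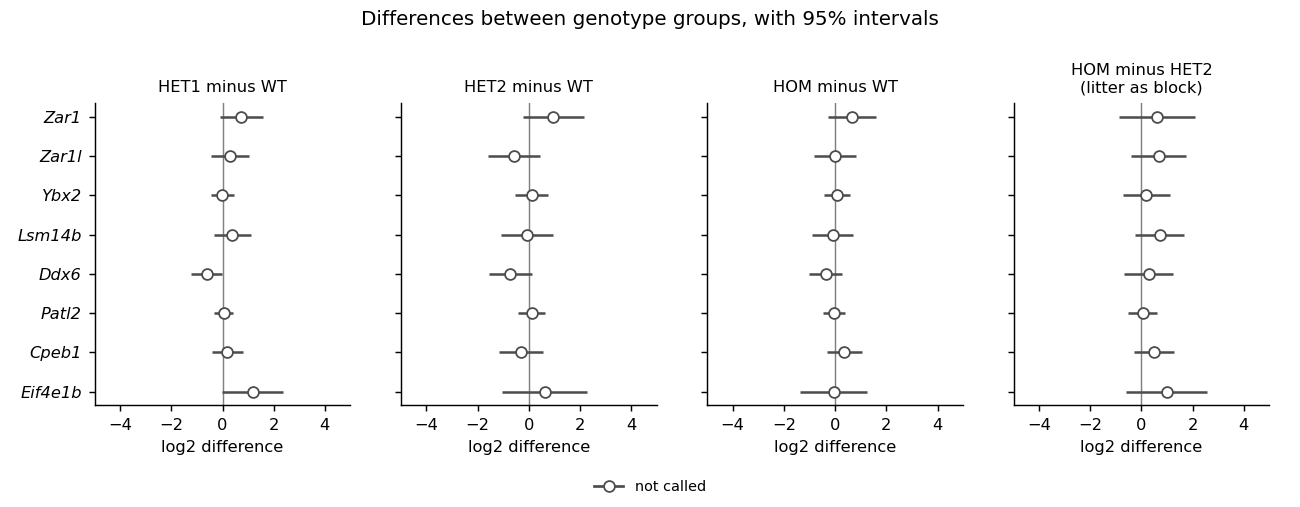
Log2 difference of each of the 8 genes in the 4 genotype comparisons, with 95% confidence intervals from limma on floored log2 RPM. Most *Ybx2* and *Patl2* values lie at the floor, which narrows their intervals. Of the intervals, only that of *Ddx6* between HET1 and WT embryos leaves out 0 before adjustment, and no adjusted p is under 0.05.

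The second question was how much the litters differed. Here *Lsm14b*, *Eif4e1b* and *Zar1* stood out from the other 5 genes in the share of their variation (sum of squares of floored log2 RPM) that lay between the 6 litters, at 52.6%, 51.8% and 42.6%. The other 5 ranged from 6.66% (*Zar1l*) to 22.4% (*Ddx6*), and over all tested genes the median was 21.8% and the 90th percentile 46.4%. Between the 4 groups the share of these 3 genes was 4.50%, 9.88% and 8.89%, beside a median of 9.74% over all tested genes. These shares are descriptions and carry no test.

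Between mating 2 and mating 1, limma called 1 of the 8 genes in the ctrl-x-WT cross (background 1.75% of tested genes), 3 of 8 in the cKO-x-WT cross (background 21.9%) and 1 of 8 in the cKO-x-HET cross (background 5.13%). By direction, the calls in ctrl-x-WT and cKO-x-WT were higher in mating 2, as were 1.25% and 6.46% of tested genes, and the call in cKO-x-HET was lower in mating 2, as were 2.95%. Mating numbers only name a litter within its cross, so the direction has no meaning across crosses. The litters also differed over the table as a whole, and in ctrl-x-WT and cKO-x-WT every embryo of a cross has the same genotype.

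**Figure D2:**
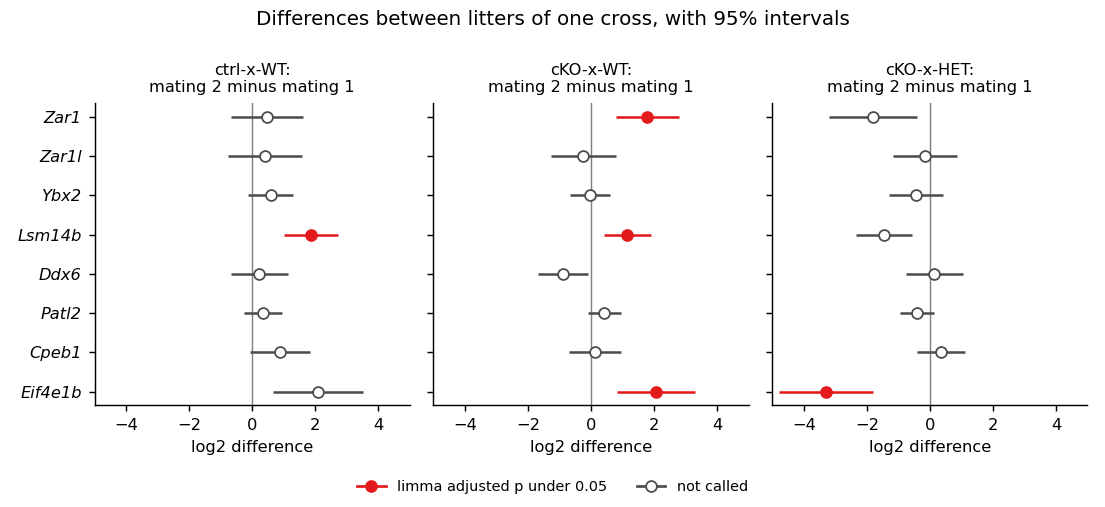
Log2 difference between mating 2 and mating 1 of each cross for the 8 genes, with 95% confidence intervals from limma on floored log2 RPM. The intervals of *Ybx2* and *Patl2* are narrowed by the floor, where most of their values lie. The called differences are *Lsm14b* in ctrl-x-WT (1.88), *Zar1* (1.79), *Lsm14b* (1.16) and *Eif4e1b* (2.06) in cKO-x-WT, and *Eif4e1b* in cKO-x-HET (-3.30).

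Of the repressors that bind mRNA, *Zar1* and its relative *Zar1l* encode zinc-finger proteins of the oocyte that bind the 3′ untranslated regions of maternal messages, and ZAR1 is needed for the RNA store around oocyte mitochondria. The lowest, median and highest levels of *Zar1* were 0, 1.56 and 9.25 RPM in WT embryos, 0, 5.75 and 60.4 in HET1, 0, 4.21 and 35.4 in HET2 and 0, 6.00 and 54.8 in HOM embryos. Every group included embryos with no *Zar1* read, and embryos above the WT maximum occurred in each of the other 3 groups. In HET2 these were replicates 3 and 4, at 31.5 and 35.4 RPM, and the other HET2 embryos held at most 4.21. The log2 difference from WT was 0.74 in HET1 (SE 0.423, 95% interval -0.11 to 1.58, adjusted p = 0.306), 0.96 in HET2 (-0.23 to 2.15, adjusted p = 0.653) and 0.65 in HOM embryos (-0.30 to 1.59, adjusted p = 0.493), and 0.59 between HOM and HET2 embryos within litters (-0.89 to 2.07).

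Between litters of a cross, *Zar1* passed the test in cKO-x-WT. There, mating 1 ranged from 0 over a median of 1.51 to 7.36 RPM, with at least 3 reads in 2 of 7 embryos. Mating 2 ranged from 2.73 over 15.2 to 60.4 RPM, with at least 3 reads in 8 of 8 embryos, and 5 of its 8 embryos exceeded all of mating 1. The difference was 1.79 on the floored log2 scale (SE 0.498, 95% interval 0.79 to 2.79, limma adjusted p = 0.00741). It remained called under all 24 alternatives, at 1.49 to 2.84. The median number of *Zar1* reads was 1 in mating 1 and 6 in mating 2, so this size rests on few reads. In cKO-x-HET, mating 1 ranged from 0.902 over 16.6 to 54.8 RPM and mating 2 from 0 over 0.405 to 11.95, with a difference of -1.81 (SE 0.665, adjusted p = 0.115). That difference was called under 3 of 24 alternatives, with limma voom (-3.03, adjusted p = 0.0253), with log2(RPM + 1) (-2.98, adjusted p = 0.0342) and with the deposited values without a floor (-3.04, adjusted p = 0.0489). In ctrl-x-WT, mating 1 had a median of 0.3995 RPM and a highest value of 9.25, and the 4 embryos of mating 2 measured 2.81, 5.90, 7.32 and 8.03 RPM, and the difference of 0.49 was not called (adjusted p = 0.799). With voom, which has no floor, it was 2.64 and not called either (adjusted p = 0.0983). Without the embryos of cKO-x-WT mating 1, HET1 embryos were called higher than WT (1.57, adjusted p = 0.0211) in a fit that called 19.2% of all genes, and without those of mating 2 the difference was -0.22, so that the HET1 value depends on which litter is used.

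*Zar1l* passed the test in no comparison of groups or litters. Its lowest, median and highest levels were 0, 8.77 and 23.6 RPM in WT, 2.47, 11.9 and 29.5 in HET1, 0.902, 4.06 and 17.2 in HET2 and 3.82, 9.34 and 13.4 in HOM embryos, and all groups overlapped. The 95% intervals of its log2 difference from WT were -0.45 to 1.02 in HET1, -1.61 to 0.46 in HET2 and -0.81 to 0.83 in HOM embryos, and its litter differences lay between -0.25 and 0.42. A level in HET2 embryos lower by more than 2-fold was within the interval, which was widest in this group of 5 embryos.

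**Figure D3:**
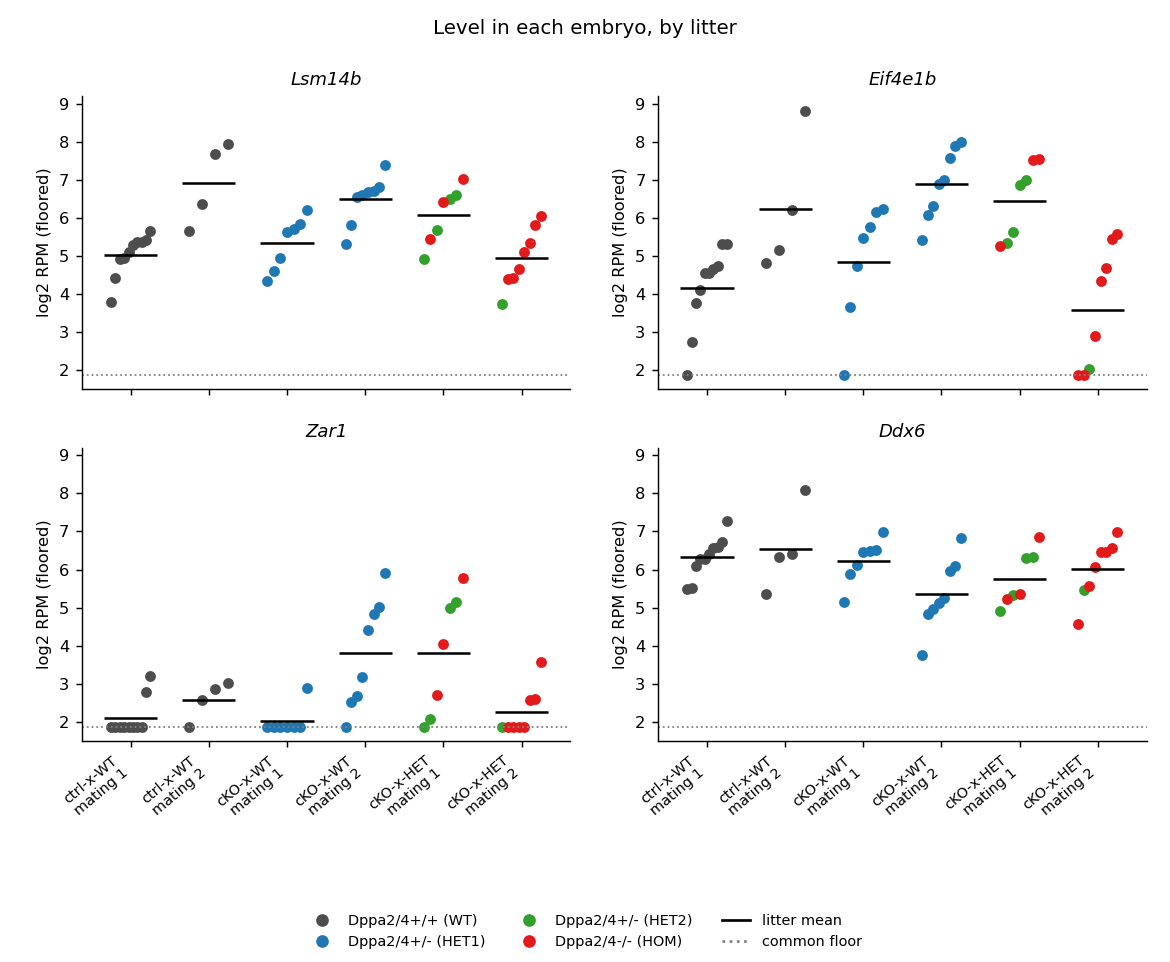
Level of *Lsm14b*, *Eif4e1b*, *Zar1* and *Ddx6* in each of the 44 embryos by litter, as floored log2 RPM, with embryos of a litter in order of value, colours for their group, a bar at the litter mean and a dotted line at the floor. For *Lsm14b* in ctrl-x-WT the lowest embryo of mating 2 (50.7 RPM) lies just above the highest of mating 1 (50.4 RPM). For *Eif4e1b* in cKO-x-HET 6 of 8 embryos of mating 2 lie below all of mating 1.

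*Lsm14b* encodes an RNA-binding protein of the LSM14 family that assembles storage particles in oocytes together with the helicase DDX6. Its lowest, median and highest levels were 13.9, 41.3 and 245 RPM in WT, 20.5, 57.7 and 167 in HET1, 13.3, 51.4 and 97.4 in HET2 and 20.99, 42.0 and 131 in HOM embryos. The groups overlapped, and the log2 differences from WT were 0.38 in HET1 (95% interval -0.34 to 1.10, adjusted p = 0.568), -0.08 in HET2 (-1.08 to 0.93) and -0.10 in HOM embryos (-0.90 to 0.70). Between HOM and HET2 embryos within litters it was 0.71 (-0.23 to 1.65).

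Between litters of a cross, *Lsm14b* passed the test in ctrl-x-WT and cKO-x-WT. In ctrl-x-WT, the 10 embryos of mating 1 ranged from 13.9 over a median of 36.9 to 50.4 RPM. The 4 embryos of mating 2 measured 50.7, 81.9, 204 and 245 RPM, the lowest just above the highest of mating 1. How many of all tested genes show the same was not counted. The difference was 1.88 (SE 0.429, 95% interval 1.02 to 2.74, adjusted p = 0.0117), and it missed the threshold without WT replicate 11 (1.53, adjusted p = 0.219) or WT replicate 12 (1.62, adjusted p = 0.0588), both of mating 2. In cKO-x-WT, mating 1 ranged from 20.5 over 50.0 to 73.6 RPM and mating 2 from 39.9 over 100.0 to 167, and 6 of 8 embryos of mating 2 exceeded all of mating 1 (1.16, SE 0.376, adjusted p = 0.0215). This call was lost without HET1 replicate 1 (1.03, adjusted p = 0.0535) or HET1 replicate 3 (0.99, adjusted p = 0.0618), and with limma voom (1.21, adjusted p = 0.0596). In cKO-x-HET, mating 1 ranged from 30.4 over 85.3 to 131 RPM and mating 2 from 13.3 over 29.9 to 65.8, with a difference of -1.46 (SE 0.424, adjusted p = 0.0524) that was called under 10 of 24 alternatives. The alternatives that gained this call included leaving out HET2 replicate 1 (-1.54, adjusted p = 0.0462), HOM replicate 1 (-1.81, adjusted p = 0.0280), HOM replicate 8 (-1.58, adjusted p = 0.0412) or HOM replicate 10 (-1.56, adjusted p = 0.0488).

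*Ddx6* encodes a DEAD-box helicase of P-bodies that represses translation and feeds messages to decapping. It ranged from 41.3 over a median of 82.1 to 272 RPM in WT, 13.6 over 62.8 to 127 in HET1, 29.9 over 44.04 to 80.1 in HET2 and 23.7 over 77.2 to 126 in HOM embryos. The log2 difference from WT was -0.62 in HET1 (SE 0.295, 95% interval -1.21 to -0.03, adjusted p = 0.198), -0.72 in HET2 (-1.55 to 0.11, adjusted p = 0.611) and -0.37 in HOM embryos (-1.03 to 0.28, adjusted p = 0.584). The HET1 value was called without the embryos of cKO-x-WT mating 1 (-1.03, adjusted p = 0.0295) and after re-centring on embryo medians (-0.99, adjusted p = 0.0432), and lay between -1.03 and -0.15 over its 16 alternatives. In cKO-x-WT, where *Zar1* and *Lsm14b* were higher in mating 2, the *Ddx6* values were lower there: mating 1 ranged from 35.5 over 88.2 to 127 RPM and mating 2 from 13.6 over 36.3 to 113, with 4 of 8 embryos of mating 2 below all of mating 1. The difference of -0.88 (SE 0.395, adjusted p = 0.103) was called only without HET1 replicate 13 (-1.09, adjusted p = 0.0383).

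Of the proteins that coat the message, *Ybx2* encodes the germ-cell cold-shock protein MSY2, which packages and stabilises maternal mRNA, and *Patl2* an oocyte relative of the decapping factor PAT1. *Ybx2* had medians of 1.39 RPM in WT, 1.92 in HET1, 2.90 in HET2 and 2.47 in HOM embryos and reached 15.0 RPM in 1 embryo. *Patl2* had a median of 0 RPM in WT, HET2 and HOM embryos and 1.51 in HET1 embryos, with a maximum of 12.2 RPM. Neither gene passed the test in any comparison of groups or litters, and with so few reads no sizes are given for them in the text. *Zar1* had the same median of 3 reads per embryo as *Ybx2*. It lay above the floor in 22 of 44 embryos, against 16 for *Ybx2*. The sizes given for *Zar1* are therefore limited by low reads as well, and should not be read as better supported by depth. Between HET1 and WT embryos limma called *Patl2* where the zero-read values, which differ with depth, were kept without a floor. In cKO-x-HET mating 2, no embryo had more than 1 *Patl2* read.

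**Figure D4:**
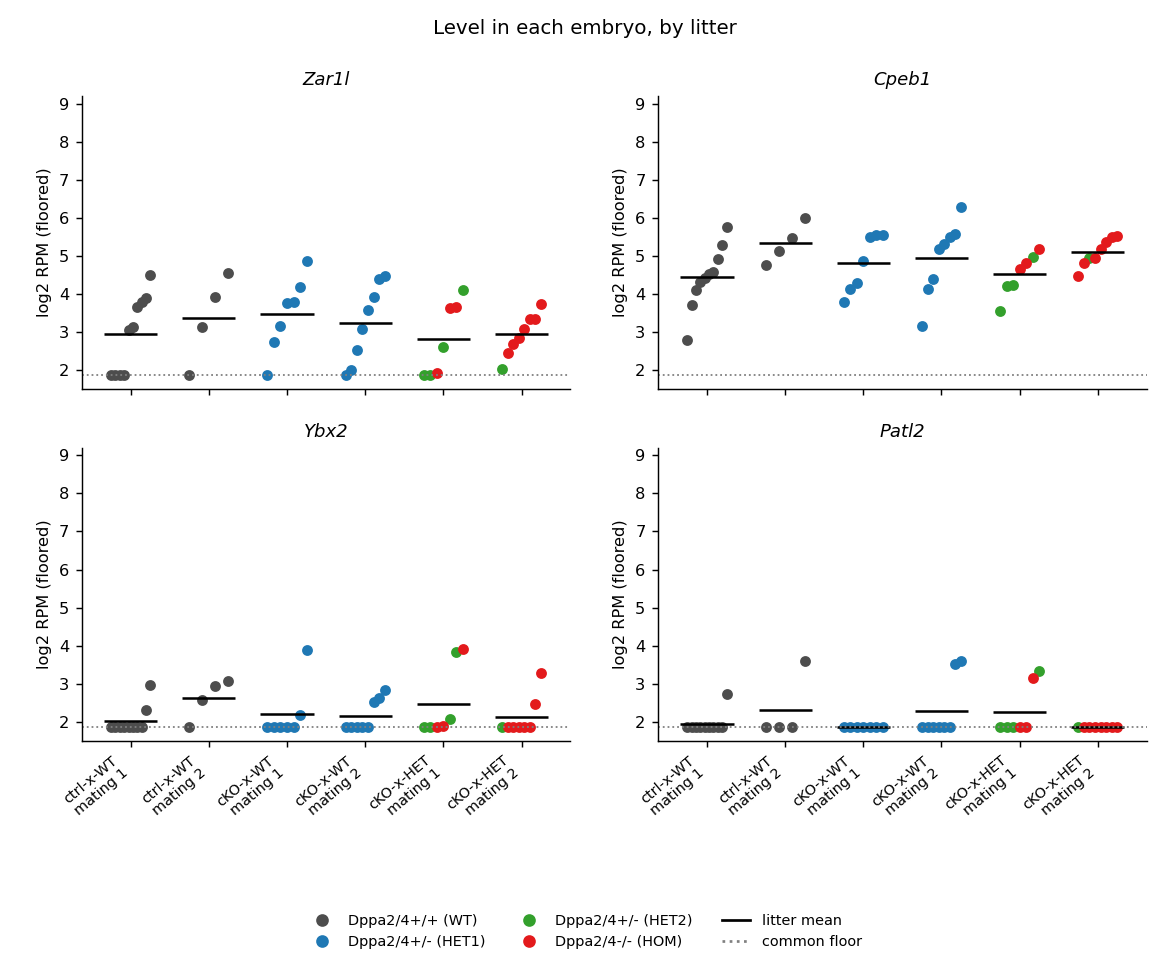
Level of *Zar1l*, *Cpeb1*, *Ybx2* and *Patl2* in each of the 44 embryos by litter, as floored log2 RPM, with embryos of a litter in order of value, colours for their group, a bar at the litter mean and a dotted line at the floor. Most *Patl2* values lie at the floor of 1.86.

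*Cpeb1* encodes the protein that binds cytoplasmic polyadenylation elements, holds messages silent in the oocyte and recruits the machinery that lengthens their tails at maturation. Its lowest, median and highest levels were 6.89, 25.5 and 63.8 RPM in WT, 8.96, 36.3 and 78.6 in HET1, 11.7, 19.0 and 31.4 in HET2 and 22.4, 33.7 and 45.9 in HOM embryos. The HOM embryos had the narrowest range of the 4 groups on the log2 scale and lay inside that of WT. The log2 differences from WT were 0.19 in HET1 (95% interval -0.43 to 0.80), -0.31 in HET2 (-1.17 to 0.55) and 0.35 in HOM embryos (-0.33 to 1.04, adjusted p = 0.627). Between litters it differed by 0.89 in ctrl-x-WT (SE 0.472, adjusted p = 0.386), 0.14 in cKO-x-WT and 0.35 in cKO-x-HET, none of them called.

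*Eif4e1b* encodes an oocyte form of the cap-binding protein eIF4E. It spanned the widest range of the 8 genes, from 0 over a median of 26.0 to 450.3 RPM in WT, 2.78 over 70.8 to 254 in HET1, 4.06 over 49.2 to 127 in HET2 and 1.22 over 32.1 to 186 in HOM embryos. The log2 difference from WT was 1.18 in HET1 (SE 0.589, 95% interval -0.0008 to 2.36, adjusted p = 0.228), 0.61 in HET2 (-1.04 to 2.27) and -0.06 in HOM embryos (-1.37 to 1.26), and 0.98 between HOM and HET2 embryos within litters (-0.59 to 2.55, adjusted p = 0.866). The HET1 value was called without the embryos of cKO-x-WT mating 1 (2.14, adjusted p = 0.0184) and turned to -0.31 without those of ctrl-x-WT mating 1. The HOM value ranged from -1.55 without ctrl-x-WT mating 1 to 2.02 without cKO-x-HET mating 2 and was called in neither.

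Between litters *Eif4e1b* gave the largest difference of the 8 genes. In cKO-x-HET, mating 1 ranged from 38.6 over 117 to 186 RPM and mating 2 from 1.22 over 13.8 to 47.8, and 5 of 7 embryos of mating 1 exceeded all of mating 2. The 3 HOM embryos of mating 1 measured 38.6, 183 and 186 RPM, and the 7 HOM embryos of mating 2 had a median of 20.3. The 4 HET2 embryos of mating 1 had a median of 83.1 RPM, and mating 2 held a single HET2 embryo, replicate 5, at 4.06. That embryo also had 471.7 RPM of *Dppa2*, where the other HET2 embryos had 27.2 to 101.0, and a difference between litters cannot be shown for HET2 alone. The difference was -3.30 (SE 0.705, 95% interval -4.78 to -1.82, adjusted p = 0.0137), and it missed the threshold without HET2 replicate 5 (-2.96, adjusted p = 0.0824) or HOM replicate 2 (-3.13, adjusted p = 0.0635). In cKO-x-WT, mating 1 ranged from 2.78 over 44.4 to 75.2 RPM and mating 2 from 42.6 over 124 to 254 (2.06, SE 0.622, adjusted p = 0.0134). That call was lost without HET1 replicate 4 (1.56, adjusted p = 0.0606) and with limma voom (1.76, adjusted p = 0.0812). In ctrl-x-WT, mating 1 ranged from 0 over 23.4 to 40.1 RPM and the embryos of mating 2 measured 28.4, 35.4, 73.6 and 450.3 RPM, with a difference of 2.09 (SE 0.710, adjusted p = 0.116) that only limma voom called (2.34, adjusted p = 0.0288). It ranged from 1.22 to 2.56 over its 23 alternatives, and the embryo at 450.3 RPM, WT replicate 11, lay far above the others.

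The levels of other oocyte transcripts are given by litter as a description, with no test. The summed level of *Zp3*, *Gdf9*, *Bmp15*, *Oosp1* and *Npm2*, which encode oocyte proteins and of which *Bmp15* and *Oosp1* contributed most, had a median of 605 RPM (240.0 to 1400.0) in mating 1 and 1150.0 (818 to 2770.0) in mating 2 of ctrl-x-WT. It was 665 (413 to 1190.0) and 2220.0 (1100.0 to 2730.0) in cKO-x-WT, and 1770.0 (1100.0 to 2290.0) and 699 (343 to 981) in cKO-x-HET. The other 7 markers of the 2-cell list, which are transcripts of genome activation such as *Zscan4d* and *Zfp352*, had medians of 181 and 202 RPM in ctrl-x-WT, 99.9 and 639 in cKO-x-WT and 427 and 93.4 in cKO-x-HET. The whole list of 12 summed to medians of 814 (299 to 1680.0) and 1350.0 (973 to 3110.0), 749 (499 to 1550.0) and 2980.0 (1350.0 to 3410.0), and 2230.0 (1440.0 to 2930.0) and 838 (383 to 1110.0) RPM in the same order. Median total reads were 1770010 and 1626468 in ctrl-x-WT, 663861 and 524828 in cKO-x-WT and 1108889 and 747523 in cKO-x-HET. The part of these marker levels in the litter differences was not tested. With log2 total reads as a covariate, and with reads thinned to equal depth, all 5 called litter differences were called again. Apart from HOM against HET2, each genotype comparison is between litters, so that litter and genotype cannot be told apart with a pair of litters per cross.

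The 8 genes were then compared with each other across embryos. Of their 28 pairs, 6 were correlated over the 44 embryos (permutation test of Pearson's r, 100000 permutations, adjusted p under 0.05), 5 of them positively, and 5 also by Spearman's rho. Embryos of a litter share their parents, so each value is given beside that after centring on litter means, with permutation within litters. *Lsm14b* and *Eif4e1b* gave the highest, r = 0.70 and rho = 0.72 (permutation adjusted p = 0.00028, from 1e-05, the smallest these permutations can give), and 0.67 without the 2 embryos farthest from the median *Lsm14b*. After centring, r was 0.43 (permutation adjusted p = 0.0929). *Zar1* was correlated with *Eif4e1b* (r = 0.56, rho = 0.60, permutation adjusted p = 0.000653) and with *Lsm14b* (r = 0.52, rho = 0.60, permutation adjusted p = 0.00168), and with centring these fell to 0.29 and 0.33 (permutation adjusted p = 0.151 for both).

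*Zar1* and *Ddx6* were correlated negatively, with r = -0.56 and rho = -0.49 (permutation adjusted p = 0.000653), -0.45 without the 2 farthest embryos and -0.45 after centring (permutation adjusted p = 0.0864). The other correlated pairs were *Eif4e1b* with *Patl2* (r = 0.45, rho = 0.40, permutation adjusted p = 0.0122) and with *Ybx2* (r = 0.39, rho = 0.38, permutation adjusted p = 0.0428), whose rho did not pass (permutation adjusted p = 0.052). After centring they were 0.30 and 0.38 (permutation adjusted p = 0.158 and 0.129), and without the 2 farthest embryos 0.36 and 0.34. After centring on litters 1 pair passed, *Cpeb1* with *Eif4e1b* (r = 0.45, permutation adjusted p = 0.0367), and it was not among the 6. Within single litters *Lsm14b* and *Eif4e1b* gave r = 0.88 and 0.03 in matings 1 and 2 of cKO-x-HET, 0.21 and 0.35 in cKO-x-WT and 0.69 in ctrl-x-WT mating 1, and *Zar1* and *Ddx6* gave -0.87, 0.03, -0.26, -0.53 and -0.15 in the same litters. The 4 embryos of ctrl-x-WT mating 2 are too few for a value.

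**Figure D5:**
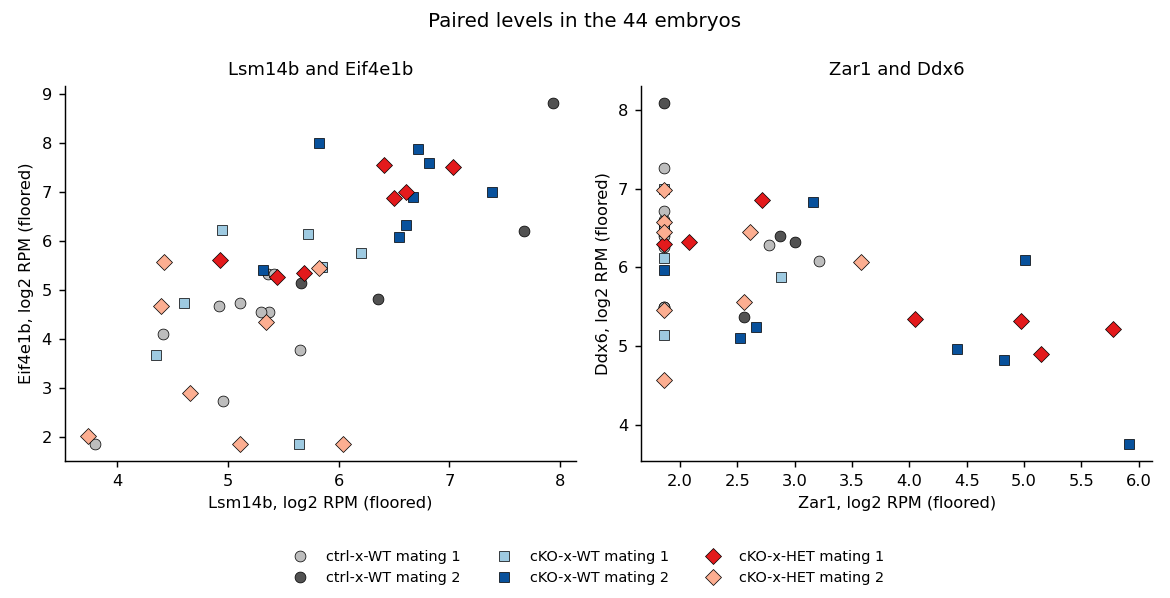
Levels of *Lsm14b* against *Eif4e1b* and of *Zar1* against *Ddx6* in the 44 embryos, both axes in floored log2 RPM, with marker shapes for crosses and shades for matings. The first pair rises together (r = 0.70) and the second runs in opposite directions (r = -0.56), with *Zar1* at the floor of 1.86 in many embryos.

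Among all other tested genes, those with the pattern most like a member over the 44 embryos were found by Pearson's r of floored log2 RPM, as a description. For *Eif4e1b* they were *Lrrfip1* (r = 0.88, and 0.79 after centring on litters) and *Ccndbp1* (0.85 and 0.73), and for *Lsm14b* they were *Siah2* (0.83 and 0.64) and *Rnf141* (0.82 and 0.68). For *Zar1* they were *Psenen* (0.82) and *1190007I07Rik* (0.77), and for *Ddx6* they were *Aggf1* and *Vps26b* (0.67 each). The best for the others reached 0.53 (*Rbl2* for *Zar1l*), 0.63 (*Wiz* for *Cpeb1*), 0.68 (*Nrarp* for *Ybx2*) and 0.74 (*AC153137.1* for *Patl2*), where the last 2 members are near the floor in most embryos. The second genes were *Nfe2* (0.50), *Gm48342* (0.57), *D10Jhu81e* (0.67) and *Drap1* (0.69).

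Other genes of the pathway were described by 4 lists. Repressor and granule partners (13 of 14 genes tested) included *G3bp2*, *Eif4enif1*, which encodes the eIF4E transporter 4E-T, and *Lsm14a*, at mean floored log2 RPM of 9.07, 8.39 and 7.79. In ctrl-x-WT 2 of 13 were higher in mating 2, *Lsm14a* (1.01, adjusted p = 0.0213) and the decapping enzyme *Dcp2* (1.12, adjusted p = 0.0204), as were 1.25% of all tested genes. In cKO-x-WT 3 of 13 were higher, *Lsm14a* (1.02), *Dcp2* (0.83) and *Dcp1a* (1.09), as were 6.46% of all tested genes. There *Ybx1*, 1 of 13, was lower (-0.83), as were 2059 of all 13338 tested genes. In cKO-x-HET *Dcp1a*, 1 of 13, was lower in mating 2 (-1.36, adjusted p = 0.0390), as were 2.95% of all tested genes. In the 4 genotype comparisons 0 of 13 were called, and the list medians between litters were 0.10, 0.04 and -0.21, beside -0.04, -0.18 and -0.01 over all tested genes.

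Cap-binding factors (10 of 11 tested), which are initiation factors of translation and their relatives and inhibitors, included *Eif4g2* (9.98), *Eif4e* (9.41) and *Eif4g1* (7.37). None was called higher in any comparison. Between the cKO-x-WT litters 2 of 10 were lower in mating 2, *Eif4g1* (-1.09) and *Eif4e2* (-1.62), a cap-binding repressor. In the same direction 2059 of all 13338 tested genes were called. Their list medians between litters were -0.36, -0.63 and 0.48. Cytoplasmic polyadenylation factors (14 of 15 tested) included *Pum2* (8.23), *Cpeb4* (7.27) and *Aurka* (6.82). *Pum2*, a repressor that binds 3′ untranslated regions, was the one of 14 called between HET1 and WT embryos (-0.62, adjusted p = 0.0211), a share of 7.14% beside 6.51% of all tested genes. The call was lost with litter as a random effect, litter means as replicates or log2 total reads as a covariate, where 0 of all genes were called. Between cKO-x-WT litters 1 of 14 was higher in mating 2, the poly(A) polymerase *Tent2* (1.45), as were 6.46% of all tested genes. There 2 of 14 were lower, among them *Cpsf4* (-1.41), as were 2059 of all 13338 tested genes.

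Proteins that bind poly(A) or untranslated regions (16 of 16 tested) included *Pabpn1* (8.11), *Elavl2* (7.71) and *Igf2bp3* (7.60). *Fmr1*, 1 of 16 (6.25%, beside 6.51% of all tested genes), was lower in HET1 than in WT embryos (-0.81, adjusted p = 0.0490), and this call was lost in the same 3 fits. *Dazl*, a germ-cell activator of translation, 1 of 16, was higher in mating 2 of cKO-x-WT (1.83, limma adjusted p = 0.00160), as were 6.46% of all tested genes. It was lower in mating 2 of cKO-x-HET (-1.22, limma adjusted p = 0.0345), as were 2.95%. In mating 2 of cKO-x-WT 2 of 16 were lower, *Pabpc1* (-0.83) and *Fxr2* (-1.31), as were 2059 of all 13338 tested genes. Over the 4 lists, between 18.8% and 30.8% of tested genes were called between the cKO-x-WT litters, beside 21.9% of all tested genes.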

How the data were processed

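Single-embryo RNA-seq of 44 embryos at the 2-cell stage was analysed, with groups and litters taken from the labels. Per the labels and the methods, the authors captured mRNA with oligo-dT, trimmed reads with Trim Galore 0.6.5 and cutadapt 2.3, mapped them to GRCm38 with HISAT2 2.1.0 and, ignoring strand, quantified mRNAs in SeqMonk. The deposited log2 RPM values give a gene with no read the value of 0.9 read, and whole reads were recovered for 99.9997% of values (within 0.05 read). Values were floored at 1.86 log2 RPM, and 13338 genes above the floor in at least 5 embryos were tested with limma 3.58.1 (R 4.3.3; trend, Benjamini-Hochberg adjustment at 0.05). The 4 groups shared a model, a second model of group by litter over all embryos gave the litter differences of ctrl-x-WT and cKO-x-WT, and cKO-x-HET was fitted alone (13265 genes) with genotype and litter. Correlations used permutation in SciPy 1.17.1. The fits were tested on simulated data.

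All 8 members are named, with the 2 tested genes most like each, and up to 3 genes of highest mean level (not corrected for length) and the called genes of each list, of which 1 is not reported here. The called genes were singled out after their values were seen. Members and lists were chosen with earlier results of these data known. Embryos of a litter are not independent litters, so p-values measure the spread between embryos. The limit of 3 reads covers counting error only, as reads carry no molecular identifiers. Positions and transcript ends come from GENCODE M21. Alternatives covered floor, filter, scale, weights, depth, litter and left-out embryos or litters.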

Additional observations from a re-analysis of the deposited data

Results flagged for a closer look

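In groups of 4 to 10 embryos, 3 of 16 gene and group pairs held an embryo far above the rest of its group by Dixon's criterion, which chance meets in about 1 in 20 groups of values that are not floored. That rate does not hold here, since values at the floor are equal and 1 value above them meets the criterion by construction. *Ybx2* reached 3.84 floored log2 RPM in HET2 replicate 3 (10 reads), where the next HET2 embryo held 2.07 and the other 3 lay at the floor. *Patl2* reached 3.33 in the same embryo (7 reads) and 3.16 in HOM replicate 2 (7 reads), where all other embryos of both groups lay at the floor of 1.86.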

How the results depend on the processing

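Of the 6 genes whose differences are given in the text, the 5 called litter differences kept their direction in all 119 alternatives and their call in 110. The 37 differences that were not called kept their side of the threshold and their direction in 646 of 715, were called in 19 and turned direction in 50, of which 0 passed the threshold. In HOM against WT, HET2 against WT and HOM against HET2 embryos, 0 of 8 genes were called under every alternative run. *Zar1*, *Ybx2* and *Patl2*, at a few reads each, are limited most by depth.

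The count of the 8 genes called between HET1 and WT embryos was 1 without a floor (*Patl2*; 24.7% of all genes), 1 with re-centring on embryo medians (*Ddx6*; 9.84%) and 3 without cKO-x-WT mating 1 (19.2%). Between ctrl-x-WT litters it was 2 with voom (5.05%), and 0 to 1 over left-out embryos, which were chosen after seeing the data. Between cKO-x-WT litters it was 1 with voom (16.3%) and 2 to 4 over left-out embryos. Between cKO-x-HET litters it was 3 without a floor (5.91%) or with log2(RPM + 1) (8.26%), 2 with voom (8.60%), array weights (11.0%), re-centring (6.96%), median-of-ratios scaling (6.86%) or a depth covariate (6.20%), and 0 to 2 over left-out embryos. Of the member pairs, 1 was correlated after centring on litters and 16 after re-centring on embryo medians, where *Ddx6* and *Patl2* turned to r = 0.37.

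Re-centring on embryo medians moved the median difference of all genes from 0.17 to -0.37 in HOM and from 0.10 to -0.27 in HET1 against WT, and from -0.18 to 0.34 between cKO-x-WT litters. With it, *Zar1l* turned to -0.53 in HOM against WT, -0.082 in HET1 against WT and 0.27 between cKO-x-WT litters, *Cpeb1* to -0.19 and -0.18 in HOM and HET1 against WT, and *Ddx6* to -0.14 between HOM and HET2 embryos. For *Zar1l* in HOM against WT the value was also -0.11 with median-of-ratios scaling, -0.022 with the depth covariate, -0.021 with litter as a random effect, -0.080 with litter means and -0.29 without ctrl-x-WT mating 1. Between cKO-x-HET litters *Zar1l* was 0.00031 without a floor and 0.090 after thinning.

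*Eif4e1b* in HOM against WT turned to 0.16 with array weights, 0.31 with voom, 0.054 with litter as a random effect, 0.088 with litter means, 2.02 without cKO-x-HET mating 2 and 0.54 without ctrl-x-WT mating 2. In HET2 against WT it turned to -0.13 with litter as a random effect, -1.09 with litter means, -2.74 without cKO-x-HET mating 1 and -0.88 without ctrl-x-WT mating 1, and in HET1 to -0.31 without ctrl-x-WT mating 1. The highest *Eif4e1b* value in HET2 against WT over its 21 alternatives was 1.45. *Lsm14b* turned to 0.73 without cKO-x-HET mating 2 and 0.44 without ctrl-x-WT mating 2 in HOM against WT, and in HET2 to 0.36 without cKO-x-HET mating 2, 0.46 without ctrl-x-WT mating 2, and ranged from -0.35 to 0.36 over left-out HET2 embryos, above 0 without replicates 1 (0.065) and 5 (0.36). In HET1 it turned to -0.060 with litter means, -0.24 without cKO-x-WT mating 2 and -0.96 without ctrl-x-WT mating 1.

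*Zar1* turned to -0.22 in HET1 without cKO-x-WT mating 2 and to -0.37 in HET2 without cKO-x-HET mating 1. Without ctrl-x-WT mating 1, *Cpeb1* turned to -0.29 in HOM and -0.45 in HET1 and *Zar1l* to -0.014 in HET1. *Cpeb1* turned to -0.0098 in HET1 with litter means, 0.24 in HET2 without cKO-x-HET mating 1, and between cKO-x-WT litters ranged from -0.057 to 0.39 over left-out embryos, below 0 without HET1 replicates 14 (-0.057) and 4 (-0.034). *Ddx6* turned to -0.16 with array weights between ctrl-x-WT litters (-0.29 to 0.62 over left-out embryos, -0.29 without WT replicate 11), and to -0.094 with voom between cKO-x-HET litters (-0.090 to 0.45 over left-out embryos, -0.049 and -0.090 without HOM replicates 2 and 3). The cause was not tested in any of these.

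With the mating number as a replicate block, 0 of 8 genes were called in each comparison with WT, as without it, and 12, 745 and 6 of all genes in HOM, HET1 and HET2 embryos in place of 6, 868 and 5. The numbers do not pair litters across crosses: over 7570 genes the litter differences of the crosses correlated at 0.44, -0.449 and -0.812. Without the litter block between HOM and HET2 embryos, *Zar1* was -0.31, *Lsm14b* -0.023 and *Eif4e1b* -0.67.

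Over all genes tested, the number called ranged from 2 to 149 in HOM (6 as reported), 0 to 4054 in HET1 (868) and 0 to 92 in HET2 (5) against WT, and from 49 to 674 (234), 2177 to 3205 (2920) and 164 to 1461 (680) between the litters of ctrl-x-WT, cKO-x-WT and cKO-x-HET. By limma, 0 genes were called in HET1 with litter as a random effect (1010 at an unadjusted p under 0.05), litter means (272) and a depth covariate (1706), and in HET2 with the first 2 of these (280 and 206).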
